A study of Mus musculus with 16 samples.

Results

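Some C/EBPα binding sites of fat cells carry much of the coactivator MED1 although no PPARγ peak overlaps them, and these MED1-rich C/EBPα peaks are described here. The members are the C/EBPα peaks outside the mitochondrial chromosome that share no base with any of the 30588 listed PPARγ peaks and whose MED1 signal, DMSO and rosiglitazone added, was 80 deposited units or more. They number 1336 of the 30519 C/EBPα peaks, and 6.86% of the 19484 that lack a PPARγ peak. The summed MED1 signal chose them, so their MED1 level is no finding and their MED1 change is given as a description only.

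The cells were 3T3-L1, an established line of mouse preadipocytes, grown into fat cells and used at day 7 of differentiation. One group received 0.1% DMSO, the vehicle, for 1 h, and the other 1 µM rosiglitazone for 1 h. Both groups shared the hormone mix that starts differentiation and the later change to medium with serum alone. ChIP-seq, which sequences the DNA bound by the protein that an antibody captures, was done for PPARγ, C/EBPα, MED1 and CBP, and each has 1 column per treatment in the peak lists. The labels give 1 sample per treatment for C/EBPα, MED1 and CBP and a pair for PPARγ.

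PPARγ is a nuclear receptor that binds DNA together with RXR, is needed to form fat cells and is activated by rosiglitazone. C/EBPα is a transcription factor that works beside it in adipocytes. Mediator bridges transcription factors and RNA polymerase II, and its subunit MED1 is contacted by nuclear receptors with bound ligand. CBP is an acetyltransferase that marks active enhancers. Because ligand strengthens the contact of PPARγ with coactivators, the comparison asks whether MED1 and CBP leave C/EBPα sites that lack PPARγ.

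The MED1 and CBP libraries were shallower with rosiglitazone, so that 1 mapped tag there counts for more. A MED1 tag was worth 3.49 units in DMSO and 7.65 in rosiglitazone, and a CBP tag 2.21 and 6.06. A PPARγ tag was worth 0.879 and 0.831 units and a C/EBPα tag 2.21 and 1.27. The median member held 22 MED1 tags, 10 CBP tags, 16 PPARγ tags and 25 C/EBPα tags over both treatments, so single members are thinly measured in CBP. With 1 library per treatment no p-value is given. Every interval below is a 95% interval of the tags and covers counting error only, not the spread between cultures or the enrichment of a library. Ratios are rosiglitazone over DMSO, of tags summed over peaks and scaled as the authors scaled them. Members at the same locus are not independent: 91 of the 1336 had another member within 10000 bp.

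Summed CBP was not lower with rosiglitazone at the MED1-rich sites. It averaged 21.7 units per peak in DMSO and 25.4 in rosiglitazone, which is a ratio of 1.17 (1.13 to 1.21). By chromosome it ran from 0.972 to 1.66, and 19 of 20 chromosomes were above 1. CBP did not enter the rule. The excess over other sites without a PPARγ peak was small. The 18148 C/EBPα peaks with no PPARγ peak and MED1 below 80 had a CBP ratio of 1.09 (1.07 to 1.11), and the members' ratio was 1.07 times theirs (1.04 to 1.11). At the 3860 C/EBPα peaks with a PPARγ peak and MED1 of 80 or more the CBP ratio was 1.37 (1.35 to 1.39). The members' ratio was 0.855 times that (0.826 to 0.885). Summed over all CBP levels, MED1-rich sites without a PPARγ peak thus had a lower CBP ratio than MED1-rich sites with one. Their median CBP signal was lower too, 33.1 against 56.3 units, and at like CBP the order was mixed. The CBP classes used for this were cut on CBP itself. A rosiglitazone tag counts for more units, so the lowest class can hold few of them and its ratio is low by construction. Only the order of the 2 sets within a class is read. The CBP ratio was 0.412 against 0.437 under 20 CBP units, where MED1-poor peaks had 0.669, and 1.11 against 1.02 at 20 to 40. It was 1.27 against 1.36 at 40 to 80 and 1.32 against 1.46 at 80 or more. Over all C/EBPα peaks the CBP ratio of summed tags was 1.25 (1.24 to 1.26), above the members' 1.17. The median log2 ratio of CBP per peak, with 1 unit added to each value, was 0.12 over the members (quartiles -0.98 and 0.93). It was 0.00 over all C/EBPα peaks, but their median was only 4 CBP tags, so the 2 medians are not compared.

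MED1 and PPARγ were higher with rosiglitazone at the members by more than CBP was, and C/EBPα was lower. Mean MED1 at the members was 50.3 units with DMSO and 87.7 with the drug, giving a ratio of 1.74 (1.70 to 1.78). MED1-rich peaks with a PPARγ peak had 1.73 (1.71 to 1.75). Both sets passed the same MED1 threshold, so this likeness is no finding. C/EBPα peaks chosen by high CBP instead had a MED1 ratio of 0.906 without a PPARγ peak and 1.40 with one. Mean PPARγ at the members was 6.56 and 13.7 units, a ratio of 2.09 (2.04 to 2.14). This was 1.52 times the ratio at the MED1-poor peaks without a PPARγ peak (1.48 to 1.56). Against MED1-rich peaks with a PPARγ peak, whose ratio was 2.12, the factor was 0.986 (0.962 to 1.01). Mean C/EBPα was 43.9 and 36.5 units, a ratio of 0.832 (0.820 to 0.846), below 1 on all 20 chromosomes, from 0.605 to 0.975. At MED1-poor peaks C/EBPα went the other way, with 1.07 (1.06 to 1.08). The direction for C/EBPα also turned with the choice of sites, since 1336 peaks without a PPARγ peak chosen by CBP in place of MED1 had 1.07 (1.05 to 1.09). Those peaks had a PPARγ ratio of 1.44 (1.41 to 1.48). Median log2 ratios per member were 0.85 for MED1, 0.97 for PPARγ and -0.35 for C/EBPα. Over all C/EBPα peaks they were 0.00, 0.50 and 0.07.

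**Figure D1:**
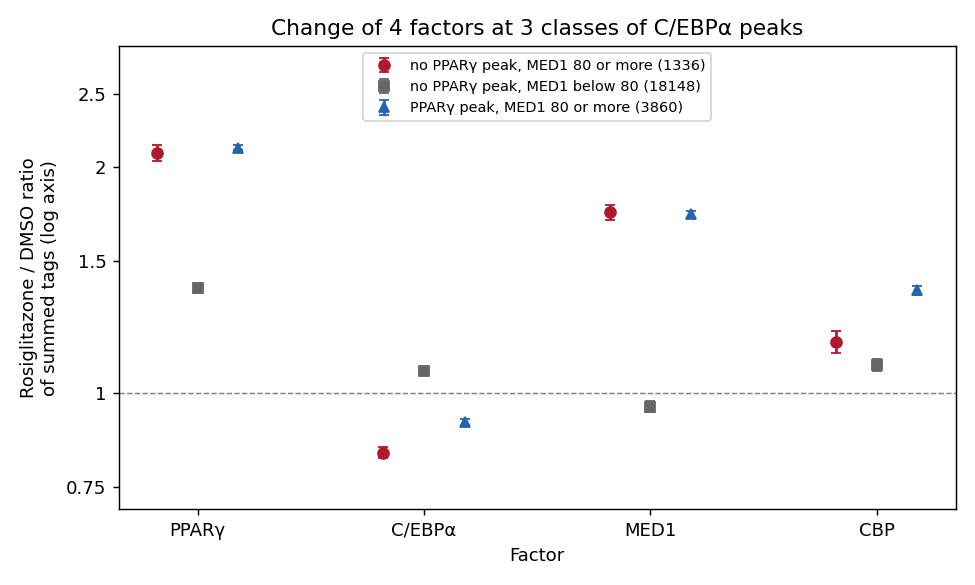
Rosiglitazone over DMSO ratio of summed tags (y, log axis) of PPARγ, C/EBPα, MED1 and CBP (x) at the 1336 members, at 18148 C/EBPα peaks with neither a PPARγ peak nor MED1 of 80, and at 3860 with both. Points are ratios and bars 95% intervals of the tags. The members sit beside the peaks that have a PPARγ peak for PPARγ and MED1, below them for CBP, and lowest of the 3 for C/EBPα. MED1 entered the choice of all 3 sets.

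Sites without a PPARγ peak were not free of PPARγ signal. The members held 0.830 to 2644 units of PPARγ over both treatments, with a median of 13.5. MED1-poor peaks without a PPARγ peak had a median of 6.75, and all 11033 C/EBPα peaks with a PPARγ peak had 28.9. Of the members, 726 (54.3%) reached the 5th percentile of the peaks that do overlap a PPARγ peak, against 14.1% of the MED1-poor peaks, and 152 (11.4%) reached their median. Many of these sites thus held as much PPARγ as the weaker of the C/EBPα peaks that overlap a PPARγ peak. The signal of the listed PPARγ peaks themselves was not compared.

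Many members also lay beside a PPARγ peak. The nearest one was 1496 bp away at the median member and 10626 bp away at the median MED1-poor peak. Within 200 bp, edge to edge, were 343 members (25.7%), against 4.75% of the MED1-poor peaks. Within 1000 bp were 606 members (45.4%), against 14.5%. In contrast, 363 members (27.2%) had no PPARγ peak within 10000 bp, where 51.2% of the MED1-poor peaks lay.

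**Figure D2:**
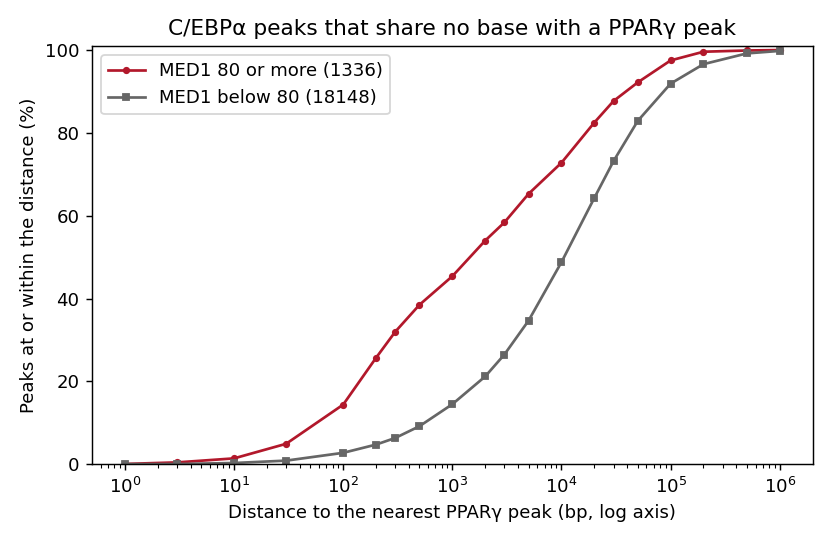
Percent of peaks (y) that have a PPARγ peak at or within a given distance in bp (x, log axis), for the members and for C/EBPα peaks without a PPARγ peak and with MED1 below 80. The members' curve lies above the other from 30 bp (4.94% against 0.876%) to 10000 bp.

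The CBP ratio was lowest at the remote members, as was the PPARγ ratio of summed tags, and the MED1 ratio was not. At members 1 to 200 bp from a PPARγ peak the CBP ratio was 1.25 (1.17 to 1.32). From there to 1000 bp it was 1.15 (1.07 to 1.24), from 1000 to 10000 bp 1.19 (1.13 to 1.26), and beyond 10000 bp 1.08 (1.01 to 1.15). The nearest group was 1.15 times the farthest (1.05 to 1.26), and the groups between were not in order. PPARγ ratios were 2.25 (2.16 to 2.35) in the nearest group, 2.33 and 2.18 in the next, and 1.75 (1.67 to 1.83) in the farthest. The farthest group leaned on 1 peak, at chr8:24205994-24206224. It held 1263 of that group's 3069 PPARγ tags in DMSO and 1845 of the 5668 in rosiglitazone. The median log2 PPARγ ratio per peak was 0.92 in the nearest group and 0.91 in the farthest. MED1 gave 1.72 (1.66 to 1.79) in the nearest and 1.82 (1.75 to 1.90) in the farthest. MED1 chose the members, and the MED1-poor peaks beyond 10000 bp had a MED1 ratio of 0.923.

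To ask how coactivators changed by the PPARγ signal beneath them, the members were placed in 3 groups of equal size by PPARγ in both treatments added, named low, middle and high PPARγ. The low group of 446 held 0.830 to 11.0 units, the middle group of 445 reached 16.7, and the high group of 445 began at 16.8. CBP was not below DMSO in any group. The CBP ratio was 1.07 (1.01 to 1.13) at low PPARγ, 1.14 (1.07 to 1.21) at middle and 1.28 (1.22 to 1.34) at high. High over low was 1.19 (1.11 to 1.29). Distance and CBP level moved with these groups. A PPARγ peak lay within 1000 bp of 32.5% of the low group and 65.6% of the high group, and the median CBP signal was 29.2 and 40.9 units. Among the 730 members farther than 1000 bp from any PPARγ peak, high over low was 1.09 (0.983 to 1.21), so the difference was then within counting error. Measured against the CBP ratio of 1.09 at MED1-poor sites, the low group was not above the other sites without a PPARγ peak.

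MED1 at the members was above DMSO in all 3 PPARγ groups. Its ratio was 1.67 (1.60 to 1.74) at low PPARγ, 1.84 (1.77 to 1.91) at middle and 1.72 (1.67 to 1.78) at high, and high over low was 1.03 (0.981 to 1.09). A gradient appeared in some subsets. Among members with 40 or more CBP units, in 3 groups of 178, the MED1 ratio was 1.35 (1.27 to 1.44), 1.53 and 1.53 (1.46 to 1.61), with high over low at 1.14 (1.05 to 1.23). It was 1.13 where no PPARγ peak lay within 200 bp. PPARγ itself had a ratio of 2.31 (2.16 to 2.47) in the low group and 2.09 (2.03 to 2.15) in the high group. C/EBPα was 0.851, 0.821 and 0.830 from low to high.

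Groups by the change of PPARγ showed no gradient of MED1 or CBP. Split into 3 by the PPARγ log2 ratio, the members had summed PPARγ ratios of 1.11, 2.16 and 4.69. The median member held 16 PPARγ tags over both treatments, so counting error enters this split and can hide a gradient. The MED1 ratios were 1.68, 1.85 and 1.70, and highest over lowest was 1.01 (0.961 to 1.07). The CBP ratios were 1.20, 1.10 and 1.20, with 1.01 (0.934 to 1.08). C/EBPα did differ, with 0.762, 0.797 and 0.920, and 1.21 (1.16 to 1.25) between the outer groups. Over single members with at least 20 tags of each factor, Spearman's rho of the PPARγ and MED1 log2 ratios was 0.03 (339 members), and that of CBP and MED1 was 0.04 (212 members). With the summed PPARγ signal, rho was 0.09 for the MED1 log2 ratio (848 members) and 0.05 for that of CBP (260 members). These are descriptions of points that share libraries.

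The MED1 ratio, too, depended on how the sites were chosen. To take MED1 out of the choice, the same number of peaks without a PPARγ peak was chosen by the highest summed CBP, at least 56.3 units. Of these 1336 CBP-rich peaks, 340 (25.4%) were members. The MED1 ratio of all 1336 CBP-rich peaks was 0.906 (0.877 to 0.935), with a mean of 34.1 units in DMSO and 30.9 in rosiglitazone. Here MED1 followed the PPARγ signal. It was 0.589 (0.544 to 0.638) at low PPARγ, 0.773 (0.726 to 0.822) at middle and 1.13 (1.09 to 1.18) at high, and high over low was 1.92 (1.76 to 2.10). At low PPARγ the mean MED1 was 22.5 units in DMSO and 13.2 in rosiglitazone. CBP, which chose these peaks, was 1.29, 1.31 and 1.33. By distance to a PPARγ peak, in the 4 classes used above, their MED1 ratio was 1.16, 0.988, 0.833 and 0.749 from near to far. Among these CBP-rich peaks MED1 was thus lower with rosiglitazone where PPARγ was weak or distant. Without a choice by MED1 or CBP, the summed ratio at distant peaks was not below 1. The 9662 peaks farther than 10000 bp from a PPARγ peak had a MED1 ratio of 1.13 (1.10 to 1.16), and the 1205 within 200 bp had 1.50 (1.46 to 1.55). The 9662 include 363 members, and the other 9299, which the MED1 threshold holds down, had 0.923. The median log2 MED1 ratio of the 9662 was 0.00. Peaks without such a choice were not split by PPARγ signal. At the 3479 C/EBPα peaks with a PPARγ peak and CBP as high, the MED1 ratio was 1.40 (1.38 to 1.42). The CBP-rich peaks without one had 0.647 times that (0.626 to 0.670). The 340 peaks in both sets had a MED1 ratio of 1.33 (1.28 to 1.38). The 996 others, which the MED1 threshold holds down, had 0.446 (0.420 to 0.474).

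**Figure D3:**
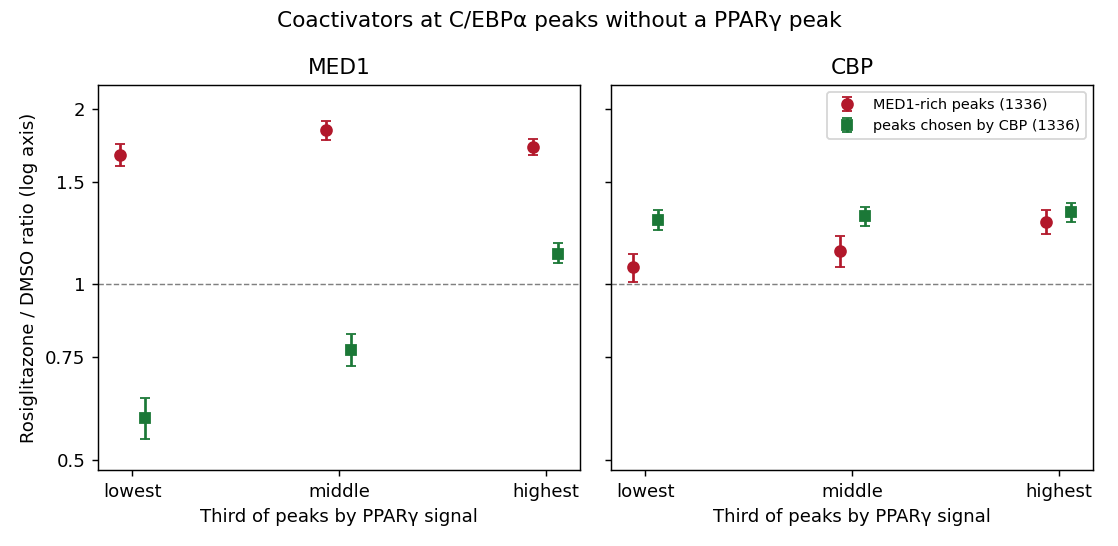
Rosiglitazone over DMSO ratio (y, log axis) of MED1 (left) and CBP (right) in 3 groups of peaks by PPARγ signal (x), for the 1336 members and for 1336 C/EBPα peaks without a PPARγ peak chosen by CBP instead. Bars are 95% intervals of the tags. MED1 climbs from 0.589 to 1.13 over the CBP-chosen peaks and stays between 1.67 and 1.84 over the members, and no CBP point lies below 1.

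Choosing by MED1 in a single library moved the MED1 ratio in the direction of that library. Peaks without a PPARγ peak and with 40 or more MED1 units in DMSO numbered 1033 and had a MED1 ratio of 1.15 (1.12 to 1.18). Those with 40 or more in rosiglitazone numbered 1655 and had 2.06 (2.02 to 2.10). The CBP ratios of these sets, 1.18 (1.15 to 1.22) and 1.17 (1.13 to 1.21), were like that of the members. All of these choices by MED1 gave a ratio above 1, and the choice by CBP did not.

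CBP level separated members with a large MED1 ratio from those with a small one. The 351 members with under 20 CBP units had a MED1 ratio of 2.06 (1.97 to 2.16). Those with 20 to 40 had 1.95 (1.88 to 2.02) and those with 40 to 80 had 1.75 (1.68 to 1.82). The 190 with 80 or more had 1.15 (1.09 to 1.21), which was 0.557 times the first (0.520 to 0.596). C/EBPα ran the other way, from 0.749 (0.722 to 0.777) at the CBP-poor members to 0.916 (0.887 to 0.945) at the CBP-rich ones. The value of 0.916 leaned on 1 peak. That peak, at chr17:39984676-39984906, held 2828 of the 6377 C/EBPα tags in DMSO and 3814 of the 10123 in rosiglitazone. The median log2 C/EBPα ratio per peak was -0.49 at the CBP-poor members and 0.06 at the CBP-rich ones. Lower C/EBPα was thus not general among the CBP-rich members. The same order of MED1 ratios held where MED1 had chosen nothing. Over all 19484 peaks without a PPARγ peak the MED1 ratio was 1.34, 1.33, 1.17 and 0.792 (0.759 to 0.827) from CBP-poor to CBP-rich.

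CBP at least 2-fold lower was found at a minority of the members that could be counted. Under 20 tags were found at 1076 members for CBP, 488 for MED1, 889 for PPARγ and 461 for C/EBPα, and these are not counted in what follows. At least 20 CBP tags were present at 260 members, and 24 of them (9.23%) were at least 2-fold lower with rosiglitazone, where 6.99% of all C/EBPα peaks with 20 CBP tags were. At least 2-fold higher were 50 (19.2%), against 19.8% over all C/EBPα peaks. Both shares were near the background. A PPARγ peak lay within 200 bp of 1 of the 24 (4.17%) and of 15 of the 50 (30.0%). The share was 26.9% at the counted members with CBP within 2-fold and 25.7% over all members. The 50 were thus near the members in general, and only the 24, which are few, lay below them. Of the 73 low-PPARγ members with enough tags 4 (5.48%) were lower and 10 higher. Of the 66 middle-PPARγ members 11 (16.7%) were lower and 12 higher, and of the 121 high-PPARγ members 9 (7.44%) were lower and 28 higher. The share with 2-fold less CBP was thus highest in the middle group and did not run in the order of the PPARγ signal. A minimum of tags favours sites that are high in the deeper DMSO library. With a minimum of 80 CBP units in its place, 4 of 190 were lower and 50 higher. That minimum in turn favours sites high in rosiglitazone, where a tag counts for more units. No share over all C/EBPα peaks is given for it, so these counts are not read as a result.

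MED1 was lower at few members too. Of 848 members with at least 20 MED1 tags, 60 (7.08%) were at least 2-fold lower and 299 (35.3%) at least 2-fold higher. Over all C/EBPα peaks with 20 MED1 tags the shares were 9.90% and 38.9%, and MED1 entered the rule. Factors that did not enter the rule differed between these groups. The 60 were rich in CBP, with a median of 116 units, against 35.3 at the members with 2-fold more MED1. CBP was above DMSO at both. Its ratio was 1.19 (1.09 to 1.30) at the 60 and 1.25 (1.17 to 1.34) at the 299. C/EBPα differed in direction, with 1.32 (1.21 to 1.44) at the 60 and 0.743 (0.717 to 0.770) at the 299, a factor of 1.78 (1.61 to 1.95). PPARγ was higher with rosiglitazone at both, by 1.78 (1.60 to 1.99) and 2.23 (2.12 to 2.35). Their summed PPARγ signal had medians of 13.7 and 15.3 units, so the 60 held about as much PPARγ as the members in general.

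The 5 members with the lowest MED1 ratio had no MED1 tag left in rosiglitazone, and they were the only members without one. The peak at chr6:39228416-39228646 (build mm9, as for all positions here) had 42 MED1 tags with DMSO against 0 with the drug, at least 6.39-fold lower when 3 tags stand for 0 (the exact interval of the ratio ended at 0.201). In the order DMSO then rosiglitazone it held 147 and 0 units of MED1, 141 and 127 of CBP, 50.8 and 56.0 of C/EBPα, and 4.40 and 5.82 of PPARγ. CBP and C/EBPα thus did not differ beyond counting error where no MED1 tag was left, and PPARγ was low. At chr2:145713764-145713994, 394 bp from a PPARγ peak, MED1 went from 105 units to 0 (at least 4.57-fold lower, bound 0.287), with 68.5 and 91.0 units of CBP. At chr10:95761330-95761560, 84632 bp from the nearest PPARγ peak, MED1 went from 90.9 units to 0 (at least 3.96-fold lower, bound 0.334), with 88.4 and 54.6 of CBP. At chr8:108669293-108669523 MED1 went from 87.4 units to 0 (at least 3.81-fold lower, bound 0.348). This site had the most CBP of the 5, 157 and 152 units, and PPARγ of 18.5 and 12.5. At chr8:129410655-129410885 MED1 went from 83.9 units to 0 (at least 3.65-fold lower, bound 0.364), with 72.9 and 54.6 of CBP and 4.40 and 0.830 of PPARγ. In none of the 5 did the CBP ratio differ from 1 beyond its interval.

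Among the 848 members with at least 20 MED1 tags, the 5 with the highest MED1 ratio held 11.1 to 55.7 units of CBP in both treatments together. The first, at chr11:101031672-101031902, held 10.5 units of MED1 with DMSO and 130 with the drug, so that the ratio was 12.4 (3.59 to 66.1), with 8.84 and 12.1 of CBP. Its C/EBPα was 33.1 and 10.2 units, a ratio of 0.308 (0.113 to 0.773). The next, at chr2:30248390-30248620, had 24.5 and 214 units of MED1, a ratio of 8.76 (3.74 to 23.8). PPARγ there was 7.91 and 9.98 units, which did not differ beyond counting error. Of the other 3, with MED1 ratios from 6.57 to 7.66, those at chr13:37917741-37917971 and chr7:148618236-148618466 also had more PPARγ. The former had 8.79 and 42.4 units (4.82, 2.42 to 10.7) and the latter 8.79 and 39.1 (4.44, 2.22 to 9.86). Both had a PPARγ peak within 248 bp. The remaining one, at chr6:59158599-59158829, had a PPARγ peak 133 bp away but only 3.52 and 4.99 units of PPARγ.

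**Figure D4:**
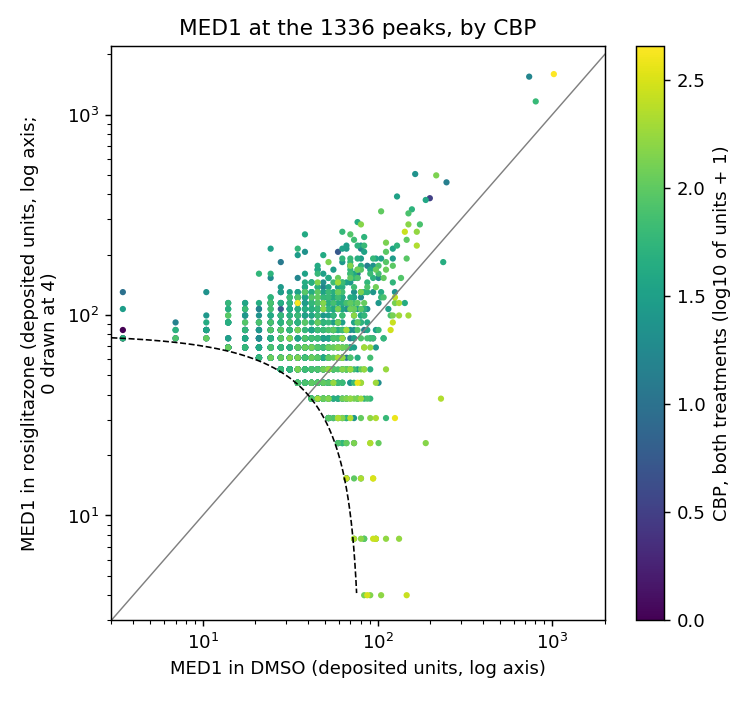
MED1 units in rosiglitazone (y) against DMSO (x) at each of the 1336 members, both on log axes, with 0 in rosiglitazone drawn at 4. Colour is the CBP signal, the grey line marks equal values and the dashed curve the threshold of 80. Most members lie above the grey line, and those far below it, the 5 without a MED1 tag in rosiglitazone included, are mostly CBP-rich.

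The CBP changes of single members were small in tags. The lowest CBP ratio among the 260 was at chr2:164692850-164693080, with 48.6 units (22 tags) in DMSO and 6.06 (1 tag) in rosiglitazone, and its ratio was 0.125 (0.00302 to 0.772). MED1 there was 62.9 and 23.0 units, and PPARγ 1.76 and 9.15. At chr3:51984820-51985050, CBP was 77.4 and 18.2 units, a ratio of 0.235 (0.0463 to 0.746), with 55.9 and 84.2 of MED1. At chr2:163406095-163406325 CBP was 50.8 and 12.1 units (0.239, 0.0273 to 0.966), while C/EBPα was 192 and 259 (1.35, 1.04 to 1.75). The other 2 of the lowest 5 had intervals that reached 1. The highest CBP ratio was at chr7:148127675-148127905, with 22.1 and 78.8 units, 3.57 (1.44 to 9.09). The other 4 of the highest 5 lay between 3.17 and 3.35. One of them, at chr1:82721300-82721530, held a single PPARγ tag in both libraries together and lay 95072 bp from a PPARγ peak. There CBP was 19.9 and 66.7 units, and MED1 35.0 and 68.9.

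Lower C/EBPα was found at members of every strength. Among members with a C/EBPα peak score under 15 the C/EBPα ratio was 0.757 (0.721 to 0.795), and MED1-poor peaks of that score had 1.08 (1.06 to 1.09). At scores of 15 to 30, 30 to 60 and 60 or more the members had 0.810, 0.844 and 0.854, each below the MED1-poor peaks. The members' ratio was 0.704 times that of the MED1-poor peaks in the weakest class (0.670 to 0.740) and 0.865 times in the strongest (0.838 to 0.893). MED1-rich peaks with a PPARγ peak lay between in each score class, with 0.816, 0.895, 0.997 and 0.905. By CBP level the members were not below those peaks throughout. Under 20, at 20 to 40 and at 40 to 80 CBP units the members had 0.749, 0.785 and 0.887. The peaks with a PPARγ peak had 0.732, 0.770 and 0.869 there. At 80 or more CBP units the values were 0.916 and 1.03. Of 875 members with at least 20 C/EBPα tags, 153 (17.5%) were at least 2-fold lower, against 8.04% of all C/EBPα peaks, and 71 (8.11%) at least 2-fold higher, against 14.9%. For PPARγ, 250 of 447 members with 20 tags (55.9%) were at least 2-fold higher, against 36.9%, and 1 was at least 2-fold lower, where the share over all C/EBPα peaks was 3.59%. MED1-rich peaks with a PPARγ peak were like the members, with 54.0% higher and 0.474% lower. Of the 447 members, 445 were in the high-PPARγ group, so these shares do not speak for the other members.

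**Figure D5:**
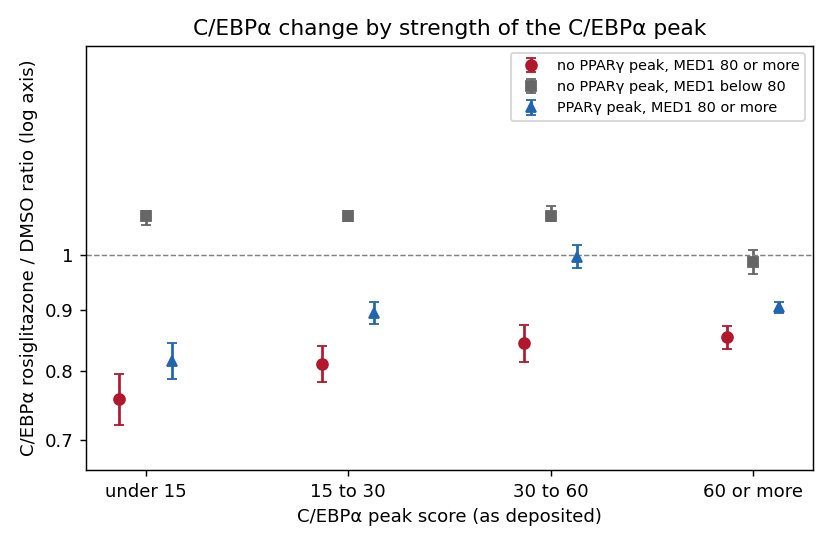
C/EBPα rosiglitazone over DMSO ratio (y, log axis) in 4 classes of C/EBPα peak score (x), for the members, for C/EBPα peaks with neither a PPARγ peak nor MED1 of 80, and for those with both. Bars are 95% intervals of the tags. The members lie below 1 in each class, from 0.757 to 0.854, and below both other sets.

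The members with most MED1 were of several kinds. The first, at chr17:39984676-39984906 and 82 bp from a PPARγ peak, had high signal of each factor. MED1 was 1020 and 1592 units, CBP 188 and 267, C/EBPα 6244 and 4858, and PPARγ 325 and 876. Its C/EBPα lay far above the members' 95th percentile of 199 units over both treatments. Input was not analysed, so binding there cannot be told apart from a general excess of reads at the locus. The next, at chr1:46910238-46910468, held 737 and 1546 units of MED1, 211 and 202 tags, a ratio of 2.10 (1.72 to 2.55). It was almost bare otherwise, with 15.5 and 0 units of CBP, 3.52 and 7.48 of PPARγ and 24.3 and 12.7 of C/EBPα. Its MED1 lay far above the members' 95th percentile of 250 units over both treatments. Whether that signal is MED1 binding was not tested, since input was not analysed. The peak at chr6:51419868-51420098 held 804 and 1163 units of MED1, 197 and 129 of C/EBPα and 30.9 and 30.3 of CBP. Its PPARγ was 2.64 and 19.1 units, a ratio of 7.25 (2.19 to 37.7). Peaks at chr2:32307724-32307954, with 248 and 459 units of MED1, and chr2:49307671-49307901, with 199 and 383, held at most 6.63 units of CBP in either treatment. A peak at chr3:96361731-96361961 was the only one of the 8 with a CBP interval above 1, with 39.8 and 97.0 units, a ratio of 2.44 (1.16 to 5.07). Its MED1 was 217 and 497 units and its PPARγ 20.2 and 21.6. The other 2 of the 8, at chr3:10208330-10208560 and chr11:69804992-69805222, had MED1 ratios of 3.07 (2.08 to 4.57) and 1.99 (1.32 to 2.98). CBP in members thus ran from 0 to 455 units. No CBP tag was found at 26 members.

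A few members had strong PPARγ signal without a listed PPARγ peak. The most PPARγ was at chr8:24205994-24206224, with 1111 and 1534 units, a ratio of 1.38 (1.29 to 1.48), though no PPARγ peak was listed within 57192 bp. C/EBPα there was 4487 and 3597 units, MED1 55.9 and 107, and CBP 28.7 and 6.06. That C/EBPα was also far above the members' 95th percentile of 199 units. Without input the signal there, too, cannot be told apart from a general excess of reads. The peak on chromosome 17 named above came next. The peak at chr8:47489907-47490137, 85 bp from a PPARγ peak, held 107 and 106 units of PPARγ, 53.0 and 107 of C/EBPα (2.02, 1.27 to 3.32), 73.4 and 107 units of MED1, and CBP of 39.8 and 66.7. The other 2, at chr10:117200151-117200381 and chr10:117167779-117168009, held 39.6 and 74.8, and 28.1 and 81.5 units of PPARγ. They lay 6954 and 6101 bp from a PPARγ peak. Several other members near them on chromosome 10 also held PPARγ above the members' 95th percentile of 45.1 units over both treatments, and others there did not. Without input, binding at this pair cannot be told apart from an excess of reads over that stretch. The peaks on chromosomes 17 and 8 with most C/EBPα hold 14.2% of the members' PPARγ units and 17.9% of their C/EBPα units, but 1.50% of the MED1 and 0.778% of the CBP. Without them the PPARγ ratio was 2.18 and the other 3 stayed within their intervals. At the other end, the 3 members with least PPARγ held 1 tag each, in rosiglitazone. The first, at chr10:82996070-82996300, had 10.5 and 76.5 units of MED1 (7.30, 1.88 to 41.3) and 26.5 and 70.0 of C/EBPα (2.64, 1.40 to 5.42). The peak at chr2:74543878-74544108 had 31.4 and 53.6 units of MED1 and lay 15 bp from a PPARγ peak. At chr4:89152702-89152932 there were 41.9 and 38.3 units of MED1, and 28.7 and 42.5 units of CBP.

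Near the threshold the weight of a tag shows. The 3 members just inside, at chr10:77088850-77089080, chr19:46702870-46703100 and chr5:30916655-30916885, each had 1 MED1 tag in DMSO and 10 in rosiglitazone, 3.49 and 76.5 units. The 3 peaks just outside, at chr1:163000677-163000907, chr11:120379427-120379657 and chr14:31508925-31509155, each had 14 tags and 4, 48.9 and 30.6 units. The peaks left out thus held more MED1 tags than the members just inside, because a rosiglitazone tag counts for more units.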

How the data were processed

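The build is mm9 and the named tools are Bowtie, FastQC, edgeR and HOMER, per the submitters' processing notes. Their versions and roles are not given in the sources used for this work. The authors deposited 2 peak lists with a normalised tag signal in 8 columns, a peak score and a focus ratio, a fraction per peak that was not used for any comparison. The column of MED1 headed BRL, a development code of rosiglitazone, was taken as the only MED1 sample with that drug. No replicate is named for the PPARγ columns, which may each hold 1 labelled sample or the pair. Input and RNA polymerase II libraries were not analysed here. Signal values were whole multiples of a step per column (100% within 0.02 steps), so tags were recovered. A count model has no replicates to fit with 1 library per treatment. Scaled to 10 M, the usual HOMER total, the steps give 1.31 to 12.0 M tags per library.

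Ratios of summed tags have exact binomial (Clopper-Pearson) 95% intervals, and ratios of 2 ratios have Woolf intervals, both computed with Python 3.11.15, numpy 2.4.6, pandas 2.3.3 and scipy 1.17.1. Tags carry no molecular identifiers. Zero counts were set against 3 tags. The code was tested on simulated tags. The named peaks are the 8 with most MED1, the 5 highest and lowest CBP and MED1 ratios among members with 20 tags, the 5 with most and 3 with least PPARγ, and 3 on each side of the threshold. The members, groups and alternatives were chosen with earlier results of these data known. Groups by distance, CBP level, peak score and MED1 change were added after the values were seen. No genome or annotation of mm9 was used here, so peaks are given without genes or sequences.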

Additional observations from a re-analysis of the deposited data

How the results depend on the processing

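Of 62 alternative values, 28 stayed within the interval, or within 1.5 times a count, and 2 reversed. At peaks chosen by CBP the MED1 ratio of 1.74 was 0.906 and the C/EBPα ratio of 0.832 was 1.07, while the PPARγ ratio was 1.44. The MED1 ratio was 1.63 with MED1 of 60 or more, 1.85 with 120 or more, 1.15 and 2.06 when chosen by the DMSO or the rosiglitazone library alone, 1.81 as the median per-peak ratio with 1 unit added, and 1.82 when divided by the ratio at MED1-poor peaks. The CBP ratio of 1.17 was 1.09 and 1.07 as the median per-peak ratio with 1 and 5 units added, and 1.07 when divided by that at MED1-poor peaks. The C/EBPα ratio was 0.868 beyond 1000 bp from a PPARγ peak and 0.785 as the median. The PPARγ ratio was 1.92 beyond 1000 bp, 1.96 as the median and 2.18 without the 2 members strongest in C/EBPα. Members numbered 2036 with MED1 of 60 or more, 568 with 120 or more and 730 beyond 1000 bp. High over low PPARγ gave 1.10 for CBP by PPARγ in DMSO alone, 1.09 beyond 1000 bp and 1.03 at peaks chosen by CBP. For MED1 it gave 1.92 at peaks chosen by CBP and 1.13 beyond 200 bp. With no tag minimum, 343 members were at least 2-fold lower in CBP, 322 higher in CBP and 562 higher in MED1. With 40 tags, 1 was lower and 5 higher in CBP, and 4 lower and 48 higher in MED1. With 80 units in place of 20 tags, 4 were lower in CBP and 562 higher in MED1. The settings in units in place of tags, by 200 bp, without the 2 strongest, and those for PPARγ and C/EBPα were chosen after seeing the data, as was splitting the CBP-chosen peaks by PPARγ. Fewer or more members passed by construction there; elsewhere the cause was not tested. No paired analysis was possible because the PPARγ columns carry no replicate number and each other factor has 1 library per treatment. Shallow CBP and MED1 libraries limit what single members show.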
